A study of Mus musculus with 78 samples.

Results

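The genes described here encode nuclear subunits of the mitochondrial respiratory chain. They were chosen by name from the array's probe annotation: symbols of the numbered Ndufa, Ndufb, Ndufc, Ndufs and Ndufv series (complex I), Sdha to Sdhd (complex II), the Uqcr genes (complex III) and the numbered Cox genes from Cox4 to Cox8 (complex IV). The rule matched 60 genes, and 59 of them had a probe set above a filter level of 8.44, as log2(signal + 16), on at least 6 arrays, out of 14719 genes that passed the same filter. They were 34 genes of complex I, 4 of complex II, 8 of complex III and 13 of complex IV. Cox7b2, a testis form of a complex IV subunit, did not pass. Of the 59, 56 exceeded the filter signal on all 78 arrays, Ndufb1 on 77 and Cox7a1 on 76, whereas Ndufb4 exceeded it on 6, so that its values are mostly below the filter. The rule used no difference between groups, but the gene set was proposed with earlier results of these arrays known.

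The respiratory chain sits in the inner mitochondrial membrane. Complex I takes electrons from NADH and complex II from succinate, both pass them to ubiquinone, complex III hands them to cytochrome c, and complex IV transfers them to oxygen, while complexes I, III and IV pump protons that drive ATP synthase. Oxidative muscle fibres and brown fat are rich in these complexes, and several complex IV subunits exist in a form made in striated muscle (and in part in brown fat) and a form made in most tissues.

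The samples were flank tissue of athymic nude mice, all female, aged 4 to 6 weeks and of the strain Crl:NU(NCr)-Foxn1nu. Except in the control group of day 0, the labels give an injection of the adenovirus Ad-VEGF-A164, which carries a form of vascular endothelial growth factor A, into the skin of the flank and ears. The groups were untreated, G6 at 10 mpk or DC101 at 20 mpk, each at day 5, day 20 and day 60. DC101 is a rat antibody to the mouse VEGF receptor VEGFR2, and the labels give no target for G6 by itself. Each group held 8 arrays, apart from DC101 at day 60 with 6. There was no group with an empty virus, the labels do not say whether the control flank was injected with anything, and the virus and the added growth factor cannot be told apart. The only controls were those of day 0, with none at day 5, day 20 or day 60. Changes against control therefore hold the injection, the time since then and the growth of the animals, which cannot be told apart. Between days, time since injection and growth of the animals cannot be told apart either. The arrays are not tied to animals. The design text gives at least 5 animals per group, fewer than the 8 arrays, so that 1 animal may have supplied more than 1 array and p-values may be too small. The tissue held markers of muscle, fat, skin, vessels and macrophages, so that fewer cells of a type and less RNA per cell cannot be told apart.

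Levels are given as log2(signal + 16), and changes are differences of group means on that scale with the standard error (SE) of a limma model over all 78 arrays. Adjusted p-values are Benjamini-Hochberg values over the 14719 genes, with 0.05 as the threshold, and a gene is said to have risen or fallen only below it. One control array, the last in the labels' numbering, stood apart: the median level of the 59 genes was 15.36 on it and at most 14.69 on the other control arrays. In DC101 day 20 that median was 14.83 on array 72, and in untreated day 20 it was lowest on arrays 51 and 52. Results that rest on these arrays are given with and without them. Counts under another model, without some arrays or at an unadjusted p have no share of all genes beside them. They cannot be set against the shares given for the main model.

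Respiratory chain genes fell in the injected flank without antibody at every time, and most at day 5. The median level of the 59 genes on an array had a lowest, median and highest value of 14.25, 14.50 and 15.36 in the control group, 13.27, 13.44 and 13.56 in untreated day 5, 13.21, 13.57 and 14.07 in untreated day 20, and 13.61, 13.83 and 14.18 in untreated day 60. None of the injected groups' ranges at these 3 times overlapped that of the controls. At day 5, 52 of the 59 genes fell against control and 0 rose in the limma model (0 also at an unadjusted p under 0.05), against 24.9% of all genes called lower. Their median change was -1.13, and that of all genes 0.05. At day 20, 53 fell and 0 rose (1 rose at an unadjusted p under 0.05), against 18.4% of all genes called lower, with a median change of -0.94. By day 60 the median change was -0.60, 42 genes fell, against 16.9% of all genes, and 2 rose, against 18.7% of all genes called higher.

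The array ranges were apart for many of the genes. For 49 of the 59 genes every untreated day 5 array lay below every control array, against 12.8% of all genes. The count was 43 at day 20, against 5.73% of all genes, and 19 at day 60, against 4.4%. Without that control array the numbers of genes that fell were 52, 53 and 38.

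**Figure D1:**
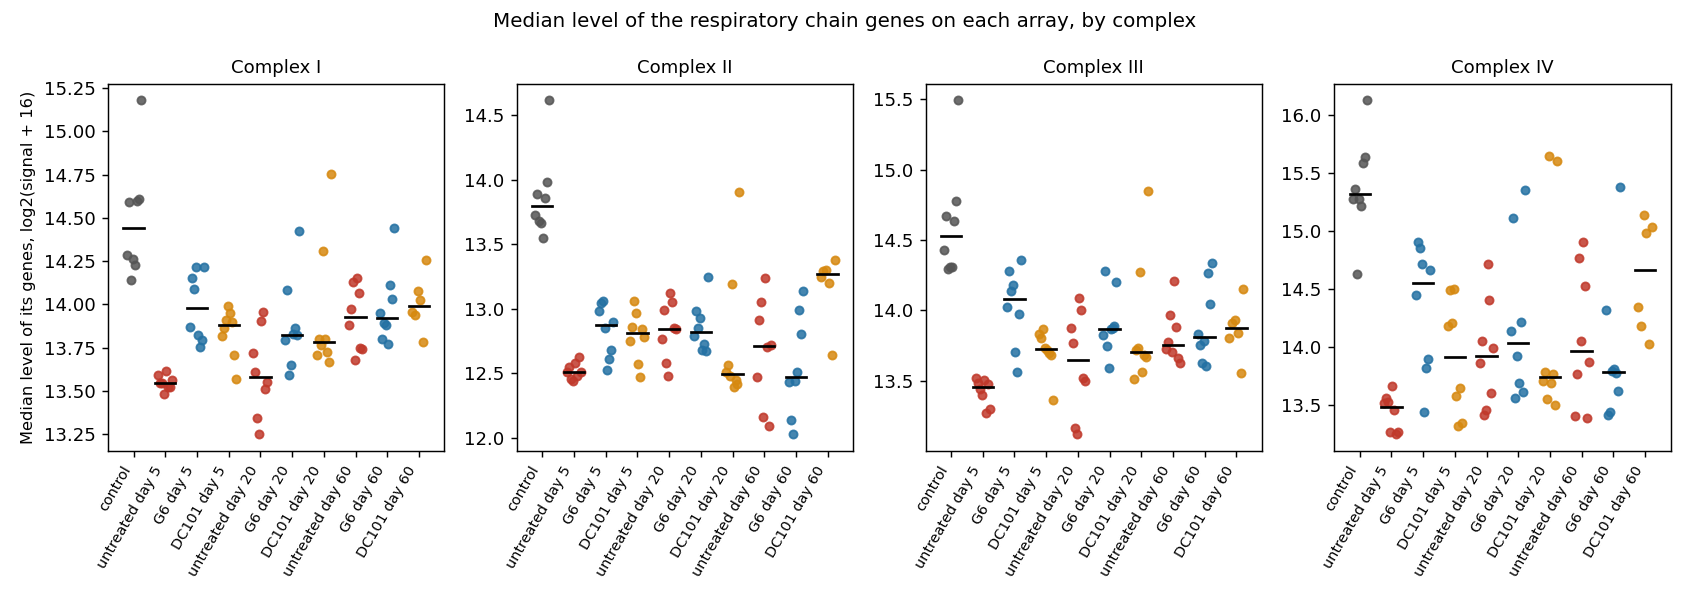
Median level of the genes of complexes I, II, III and IV on each array, as log2(signal + 16), by group. Points are arrays and bars are group medians. In all 4 panels the untreated day 5 arrays lie below the control arrays, and the same control array, with the highest level of the 59 genes, is the highest control point.

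Complex I, the NADH dehydrogenase, fell across nearly its whole set at day 5: 32 of 34 genes were lower, with a median change of -1.16. Ndufb9, an accessory subunit of the membrane arm, changed most among them. Its lowest, median and highest levels were 15.22, 15.48 and 16.43 in the controls and 13.82, 13.99 and 14.12 in untreated day 5, with no overlap (change -1.59, SE 0.18, adjusted p 1.56e-11). Ndufs3, a core subunit of the peripheral arm, had a change of -1.52 (SE 0.16, adjusted p 3.59e-12), and Ndufb10, another membrane arm subunit, of -1.43 (SE 0.15). Both were below every control array on all 8 untreated arrays. The 2 genes that did not pass were Ndufb1, at -0.27 (95% interval -0.58 to 0.04), and Ndufb4, at 0.21 (95% interval -0.15 to 0.57), whose median of 8.02 in untreated day 5 lay under the filter level. At day 20, 33 of 34 fell, and at day 60, 26 of 34.

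Complex II, succinate dehydrogenase, is shared between the respiratory chain and the tricarboxylic acid cycle. All 4 of its genes fell at day 5, day 20 and day 60, with median changes of -1.33, -1.13 and -0.97. Sdhc, one of the membrane anchors, had the largest change of the 4 at day 5 (-1.37, SE 0.18) and Sdhd, the other anchor, the smallest (-1.27, SE 0.21). For Sdhc the levels ran 13.44, 13.78 and 14.66 in the controls (lowest, median, highest), 12.30, 12.46 and 12.67 in untreated day 5, 12.35, 12.78 and 13.06 in untreated day 20 and 11.04, 12.25 and 12.96 in untreated day 60. Untreated arrays were below all controls at each time.

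Complex III, the cytochrome bc1 complex, also fell as a whole at day 5, with 8 of 8 genes lower and a median change of -1.12. The gene for its Rieske iron-sulfur protein, Uqcrfs1, had control levels of 13.89, 14.29 and 15.36 and untreated day 5 levels of 12.46, 12.74 and 12.98, a fall of 3.10-fold (log2 change -1.63, SE 0.20, adjusted p 2.59e-10). Uqcrb, a small subunit near the ubiquinone site, had the smallest change of the complex on the probe sets used, at -0.51 (SE 0.12, adjusted p 1.72e-04), and its groups overlapped. That probe set is very bright, with a mean level of 16.33, and the other one of Uqcrb, at 14.16, gave -1.31 (SE 0.15, adjusted p 1.31e-11). At day 20 all 8 were lower and at day 60, 6 of 8.

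Complex IV, cytochrome c oxidase, was divided. Of its 13 genes 8 fell at day 5, 8 at day 20 and 6 at day 60. The median changes over its genes, -0.47, -0.60 and -0.18, were the smallest of the 4 complexes at each time. The 3 largest changes of all 59 genes were nevertheless in complex IV at each time, in Cox7a1, Cox8b and Cox6a2, the striated muscle forms of subunits 7a, 8 and 6a. The median level of complex IV on an array, however, dropped most of the 4 complexes at each time. Its group medians were 15.32 in the controls and 13.48, 13.93 and 13.96 without antibody at day 5, day 20 and day 60. The gene in the middle differed: Cox8a in untreated day 5, and Cox6a2, Cox6a1 or Cox8b in the controls. The median change also takes in testis forms and a Cox7c probe set with a mean level of 9.82. Cox7a1 fell by 3.44 on the log2 scale at day 5 (SE 0.49, adjusted p 1.05e-08), which is 10.8-fold. Its levels were 12.44, 13.62 and 14.94 in the controls and 9.89, 10.16 and 10.47 in untreated day 5. For Cox8b the corresponding values were 14.25, 15.09 and 16.13 against 11.66, 11.83 and 12.27 (change -3.17, SE 0.50, adjusted p 1.43e-07), and for Cox6a2 14.63, 15.46 and 16.58 against 12.43, 12.68 and 13.09 (change -2.81, SE 0.45, adjusted p 2.32e-07). No untreated day 5 array reached a control array in any of these 3 genes.

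The widely expressed partner genes behaved differently. Cox8a did not pass the threshold at day 5 (0.15, 95% interval -0.07 to 0.38), with levels of 12.64, 13.35 and 13.81 in the controls and 13.25, 13.48 and 13.66 without antibody. Cox6a1 did not pass either (0.16, 95% interval -0.05 to 0.36), although its second probe set did (0.32, adjusted p 0.036). Cox7a2 fell by 0.45 on the log2 scale (SE 0.09, adjusted p 2.97e-05), or 1.36-fold. Cox7c, a small subunit of the complex, had the smallest change, -0.01 (95% interval -0.38 to 0.35), on a probe set with a control median of 9.86. Cox8c and Cox6b2, the testis forms of subunits 8 and 6b, did not pass at day 5, at -0.24 and 0.25.

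Unequal change within each pair of isoforms was tested on the difference between the muscle form and its partner on each array, by exact two-sided permutation tests over 3 pairs in 9 comparisons, with adjustment over the 27 tests. A change in this difference shows that the forms changed unequally, and does not show that either stayed constant. The Cox7a1 less Cox7a2 difference was -2.28 ± 0.60 (SD, n = 8) in the controls and -5.27 ± 0.26 (SD, n = 8) in untreated day 5, the Cox8b less Cox8a difference went from 1.79 ± 0.93 to -1.53 ± 0.33, and the Cox6a2 less Cox6a1 difference from 0.01 ± 0.61 to -2.95 ± 0.32 (SD, n = 8 in each). Each of these changes had an exact p of 0.0001554, the smallest possible with 8 against 8 arrays, and an adjusted p of 0.000524. At day 20 the changes were -1.70, -2.01 and -1.87 and at day 60 -2.43, -2.19 and -2.08, for the 7a, 8 and 6a pairs, with exact permutation tests giving adjusted p-values from 0.000524 to 0.0015.

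**Figure D2:**
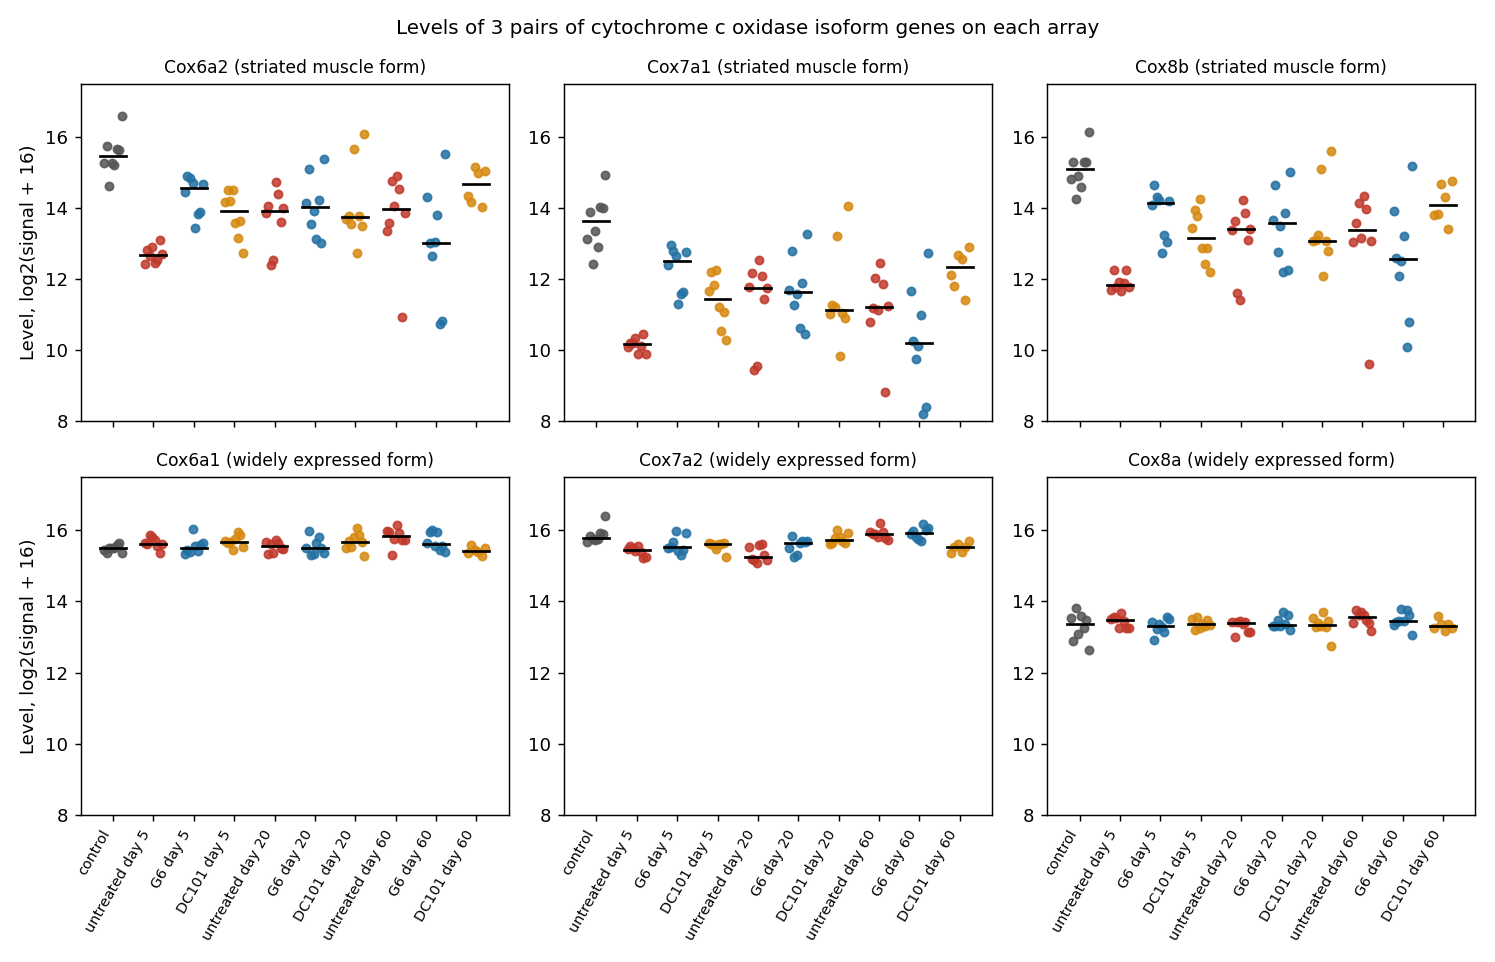
Levels of the 3 isoform pairs on each array, as log2(signal + 16), by group, with the striated muscle form above and the widely expressed form below. Points are arrays and bars are group medians. The muscle forms of the controls lie above all untreated day 5 arrays, and the partners of subunits 6a and 8 overlap between these groups.

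The promoter windows of these genes are shown because the forms of a pair moved unequally. RefSeq windows (build GRCm38.p6) of 300 bases, from 250 before to 50 after the annotated start, were at hand for 50 of the 60 genes (Cox7b2 included), and for 5 of the 6 isoform genes. 8 short motifs were searched on both strands, and capitals mark their matches: CCGGAAG (core of ETS factors such as GABP), GCGCATGC (NRF-1), AAGATGGCG (YY1), CCAAT (the box bound by NF-Y), CAGCTG (an E-box, bound by myogenic factors among others), TATAAA (the TATA box), TCAAGGTCA (estrogen-related receptors) and CTAAAAATA (MEF2). Overlapping matches are merged in the print, and a gene with several windows was counted where any of them held the motif. The windows, each 5′ to 3′ on the gene's own strand, are:
Cox7a1, chr7:30183921-30184220, plus strand: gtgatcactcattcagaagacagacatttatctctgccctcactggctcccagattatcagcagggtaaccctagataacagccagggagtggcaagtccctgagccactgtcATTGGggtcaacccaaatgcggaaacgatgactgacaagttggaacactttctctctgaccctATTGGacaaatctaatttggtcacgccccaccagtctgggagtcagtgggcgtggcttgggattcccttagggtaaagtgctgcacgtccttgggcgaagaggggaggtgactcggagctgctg
Cox7a2, chr9:79759804-79760103, minus strand: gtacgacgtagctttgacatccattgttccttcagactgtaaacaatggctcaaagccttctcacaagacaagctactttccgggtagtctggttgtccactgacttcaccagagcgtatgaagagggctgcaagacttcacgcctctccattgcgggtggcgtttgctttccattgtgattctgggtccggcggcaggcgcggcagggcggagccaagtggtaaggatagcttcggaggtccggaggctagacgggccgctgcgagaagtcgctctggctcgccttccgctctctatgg
Cox8b, chr7:140900397-140900696, minus strand: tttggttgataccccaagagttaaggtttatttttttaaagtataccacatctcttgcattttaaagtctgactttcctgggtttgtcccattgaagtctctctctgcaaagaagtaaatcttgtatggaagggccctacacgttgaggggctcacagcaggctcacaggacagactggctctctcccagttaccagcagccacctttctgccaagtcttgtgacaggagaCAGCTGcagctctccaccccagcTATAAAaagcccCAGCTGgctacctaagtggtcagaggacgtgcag
Cox8a, chr19:7217567-7217866, minus strand: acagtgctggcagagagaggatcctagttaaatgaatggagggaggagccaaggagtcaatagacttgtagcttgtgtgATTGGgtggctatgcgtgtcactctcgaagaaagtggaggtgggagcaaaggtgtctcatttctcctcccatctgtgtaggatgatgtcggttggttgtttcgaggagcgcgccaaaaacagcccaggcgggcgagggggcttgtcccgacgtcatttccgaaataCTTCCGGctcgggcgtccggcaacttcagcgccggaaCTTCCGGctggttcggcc
Cox6a1, chr5:115348909-115349208, minus strand: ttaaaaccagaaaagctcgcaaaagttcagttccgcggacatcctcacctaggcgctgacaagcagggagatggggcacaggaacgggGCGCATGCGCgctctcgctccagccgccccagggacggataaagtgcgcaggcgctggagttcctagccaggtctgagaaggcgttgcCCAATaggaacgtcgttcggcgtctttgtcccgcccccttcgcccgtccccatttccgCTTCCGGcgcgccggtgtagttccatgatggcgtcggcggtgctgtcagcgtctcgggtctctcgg

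The Cox8b window held CAGCTG at bases 232 and 267 and TATAAA at base 255, with 2 CG dinucleotides in 300 bases. The TATAAA match and the second CAGCTG lay 4 and 16 bases after the annotated start, and the first CAGCTG 19 before it. TATAAA here is thus a match of letters downstream of that start. Its partner Cox8a held CCGGAAG, read on the other strand, at bases 246 and 283, a CCAAT match at base 80 and 19 CG dinucleotides. The Cox7a1 window held CCAAT matches at bases 114 and 177 and 7 CG dinucleotides, and the Cox7a2 window none of the 8 motifs and 20 CG dinucleotides. Cox6a1 had overlapping GCGCATGC matches at bases 89 and 91, CCAAT at base 177, CCGGAAG at base 235 and 32 CG dinucleotides. The median was 18.5 over those 50 genes and 7 over the windows of 27025 genes. CCGGAAG was found in 11 of the 50 genes and 9.93% of all genes, GCGCATGC in 6 and 3.05%, AAGATGGCG in 4 and 1.64%, CCAAT in 19 and 41.1%, CAGCTG in 5 and 18.3%, TATAAA in 6 and 15.7%, TCAAGGTCA in 1 (Sdhd) and 0.466%, and CTAAAAATA in 0 and 0.588%. These are letters in a window, and binding was not measured.

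At day 60 the set had moved apart. Untreated day 60 was compared with untreated day 20 directly: 26 of the 59 genes rose, against 11.9% of all genes, and 2 fell, against 13.7% of all genes. The median change was 0.27, and 16 of 34 complex I genes, 0 of 4 complex II, 5 of 8 complex III and 5 of 13 complex IV genes were among those that rose. Uqcrh, the hinge protein of complex III, had levels of 13.79, 14.07 and 14.57 in untreated day 20 and 14.48, 14.79 and 15.16 in untreated day 60, the largest rise of the set (0.62, SE 0.13, adjusted p 0.000189). Cox7a2 rose by 0.58 (SE 0.09). The 2 that fell further were Sdhc (-0.61, SE 0.18, adjusted p 0.0093) and Ndufa8 (-0.44, SE 0.16, adjusted p 0.033), an accessory complex I subunit. The muscle forms did not pass: their changes were -0.15 for Cox7a1 (95% interval -1.12 to 0.82), 0.04 for Cox8b and 0.05 for Cox6a2. Without untreated day 20 arrays 51 and 52, 10 genes rose in place of 26. Between day 5 and day 20 without antibody 2 genes rose, Sdha and Ndufa6 (0.36 and 0.42), against 10.4% of all genes, and without arrays 51 and 52 that count was 14.

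**Figure D3:**
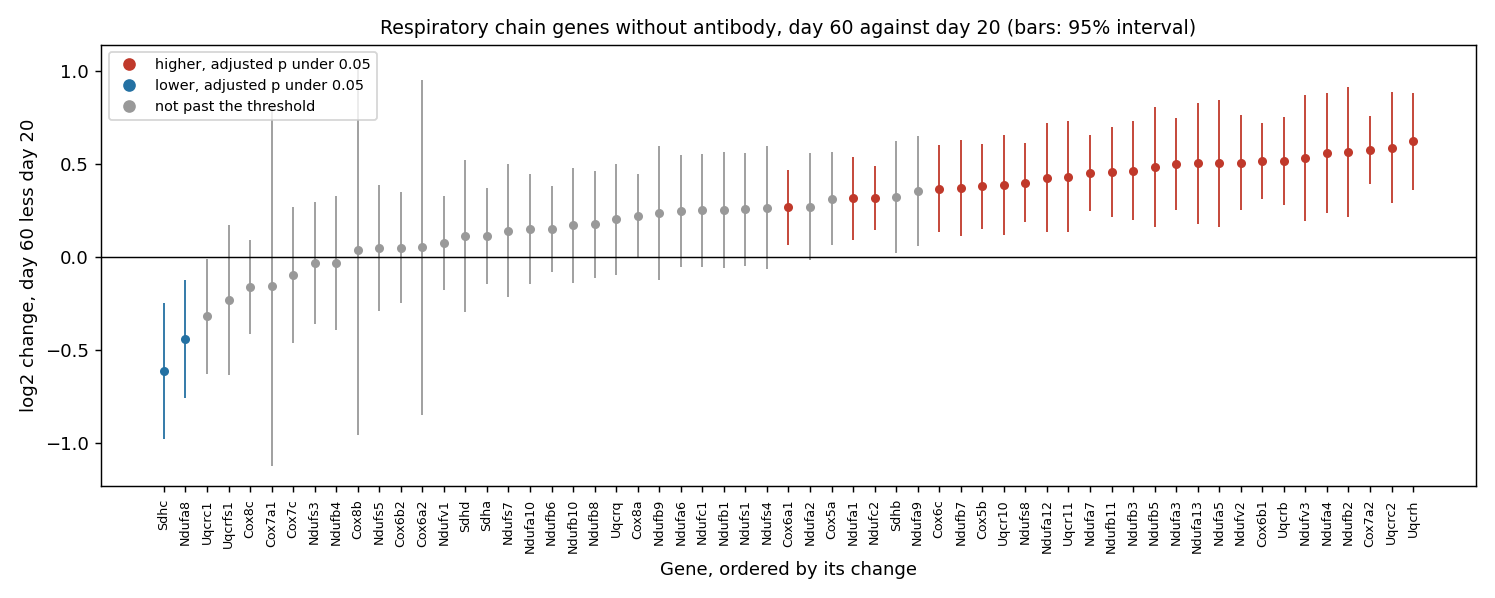
Change of each of the 59 genes between untreated day 20 and untreated day 60, on the log2 scale, ordered by size. Points are model estimates and bars are 95% intervals. Sdhc and Ndufa8 are the 2 called lower, and 26 genes are called higher.

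Against control, the day 60 changes therefore differed among genes of one complex. Sdhc was lower by 1.70 (SE 0.18), Ndufa8 by 1.38 (SE 0.16), Uqcrfs1 by 1.37 (SE 0.20) and Uqcrc1, a core subunit of complex III, by 1.23 on the log2 scale, while Uqcrb (0.07), Uqcrh (-0.17), Ndufs8 (-0.09) and Ndufc2 (-0.07) did not pass. The other probe set of Uqcrb did, at -0.51 (adjusted p 0.0054). The 2 genes that rose against control were Cox6b2 (0.39, SE 0.15, adjusted p 0.036) and Cox6a1 (0.33, SE 0.10, adjusted p 0.0083), each on 7 of 8 arrays above the control mean, and the second probe set of Cox6a1 gave 0.09 and did not pass. Measures of RNA quality differed too: the median ratio of the 3′ to the 5′ probe set of Actb was 1.31 in the controls, 1.62 in untreated day 5, 1.42 in untreated day 20 and 1.88 in untreated day 60. With the Actb and Gapdh ratios in the model, 52, 53 and 20 genes fell at day 5, day 20 and day 60, and at day 60 Cox7a1, Cox8b and Cox6a2 no longer passed (-1.08, -0.54 and -0.49). The Actb ratios of untreated day 60 (1.579 to 2.573) did not overlap those of the controls (1.209 to 1.502). The Gapdh ratios of untreated day 5 (0.907 to 1.101) did not overlap those of the controls (0.7724 to 0.8595). At day 5 and day 60 this model can therefore hardly tell RNA quality from the group.

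Respiratory chain genes were higher with G6 at day 5. Against untreated day 5, 38 of the 59 genes rose and 0 fell in the limma model (0 at an unadjusted p under 0.05), against 16.7% of all genes called higher, with a median change of 0.44. They were 28 of 34 in complex I, 1 of 4 in complex II, 4 of 8 in complex III and 5 of 13 in complex IV. The 3 muscle forms led again. Cox7a1 had levels of 9.89, 10.16 and 10.47 in untreated day 5 and 11.29, 12.52 and 12.97 with G6, with no overlap (change 2.11, SE 0.49, adjusted p 5.19e-04, 4.31-fold). Cox8b rose by 1.91 (SE 0.50) and Cox6a2 by 1.64 (SE 0.45), again with no overlap of arrays. Ndufa5, an accessory subunit of complex I, rose by 0.92 (SE 0.17, adjusted p 2.17e-05) and Ndufb10 by 0.82 (SE 0.15).

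The isoform differences rose with G6 as well at day 5, by 1.93 for Cox7a1 less Cox7a2, 2.04 for Cox8b less Cox8a and 1.73 for Cox6a2 less Cox6a1, each with an adjusted p of 0.000524 in the exact permutation test. Of complex II, Sdhc passed (0.46, SE 0.18, adjusted p 0.048), and Sdha, Sdhb and Sdhd did not (0.17, 0.25 and 0.22). Other probe sets turned this round, with Sdhc at 0.16 (adjusted p 0.44) and Sdhd at 0.54 (adjusted p 0.022). G6 did not bring the set to control levels: 46 of the 59 genes were lower in G6 day 5 than in control, against 18.9% of all genes, and 1 was higher, Cox6b2 at 0.37, against 22.2% of all genes called higher. The count of 46 was 36 without G6 day 5 arrays 13 and 14 and 18 with the RNA ratios in the model. The Gapdh ratios of G6 day 5 (0.90 to 1.55) did not overlap those of the controls (0.77 to 0.86), so that this model can hardly tell RNA quality from the group.

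DC101 gave a smaller number of calls at day 5 and the direct comparison with G6 found few differences. Against untreated, 7 genes rose and 0 fell (1 fell at an unadjusted p under 0.05), against 4.66% of all genes called higher, with a median change of 0.31. Ndufb9 (0.51, SE 0.18, adjusted p 0.048), Ndufb10 (0.51, SE 0.15, adjusted p 0.019) and Ndufs3 (0.50, SE 0.16, adjusted p 0.034) changed most among the 7, all of them complex I genes, and the other probe set of Ndufb9 did not pass (0.39, adjusted p 0.12). Cox7a1, Cox8b and Cox6a2 had changes of 1.23 (95% interval 0.26 to 2.20), 1.32 (0.33 to 2.31) and 1.11 (0.21 to 2.01) and adjusted p-values of 0.083, 0.070 and 0.092 in limma, while their differences from the partner forms rose by 1.10, 1.37 and 1.07 with adjusted p-values of 0.0015, 0.000839 and 0.0028 in the exact permutation tests. The count of 7 was 40 with only these 2 groups in the model, 42 with array weights and 0 with neighbouring arrays averaged or with the RNA ratios in the model. The share of all genes called under these settings is not given, so that the moved counts are no result about the set. The median Actb ratio was 1.29 with DC101 at day 5. In G6 against DC101 at day 5, 2 genes were higher, Ndufa2 (0.44) and Ndufa5 (0.55), against 5.82% of all genes, a share of the set below that background. At an unadjusted p under 0.05, 10 were higher, a count with no share of all genes beside it.

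**Figure D4:**
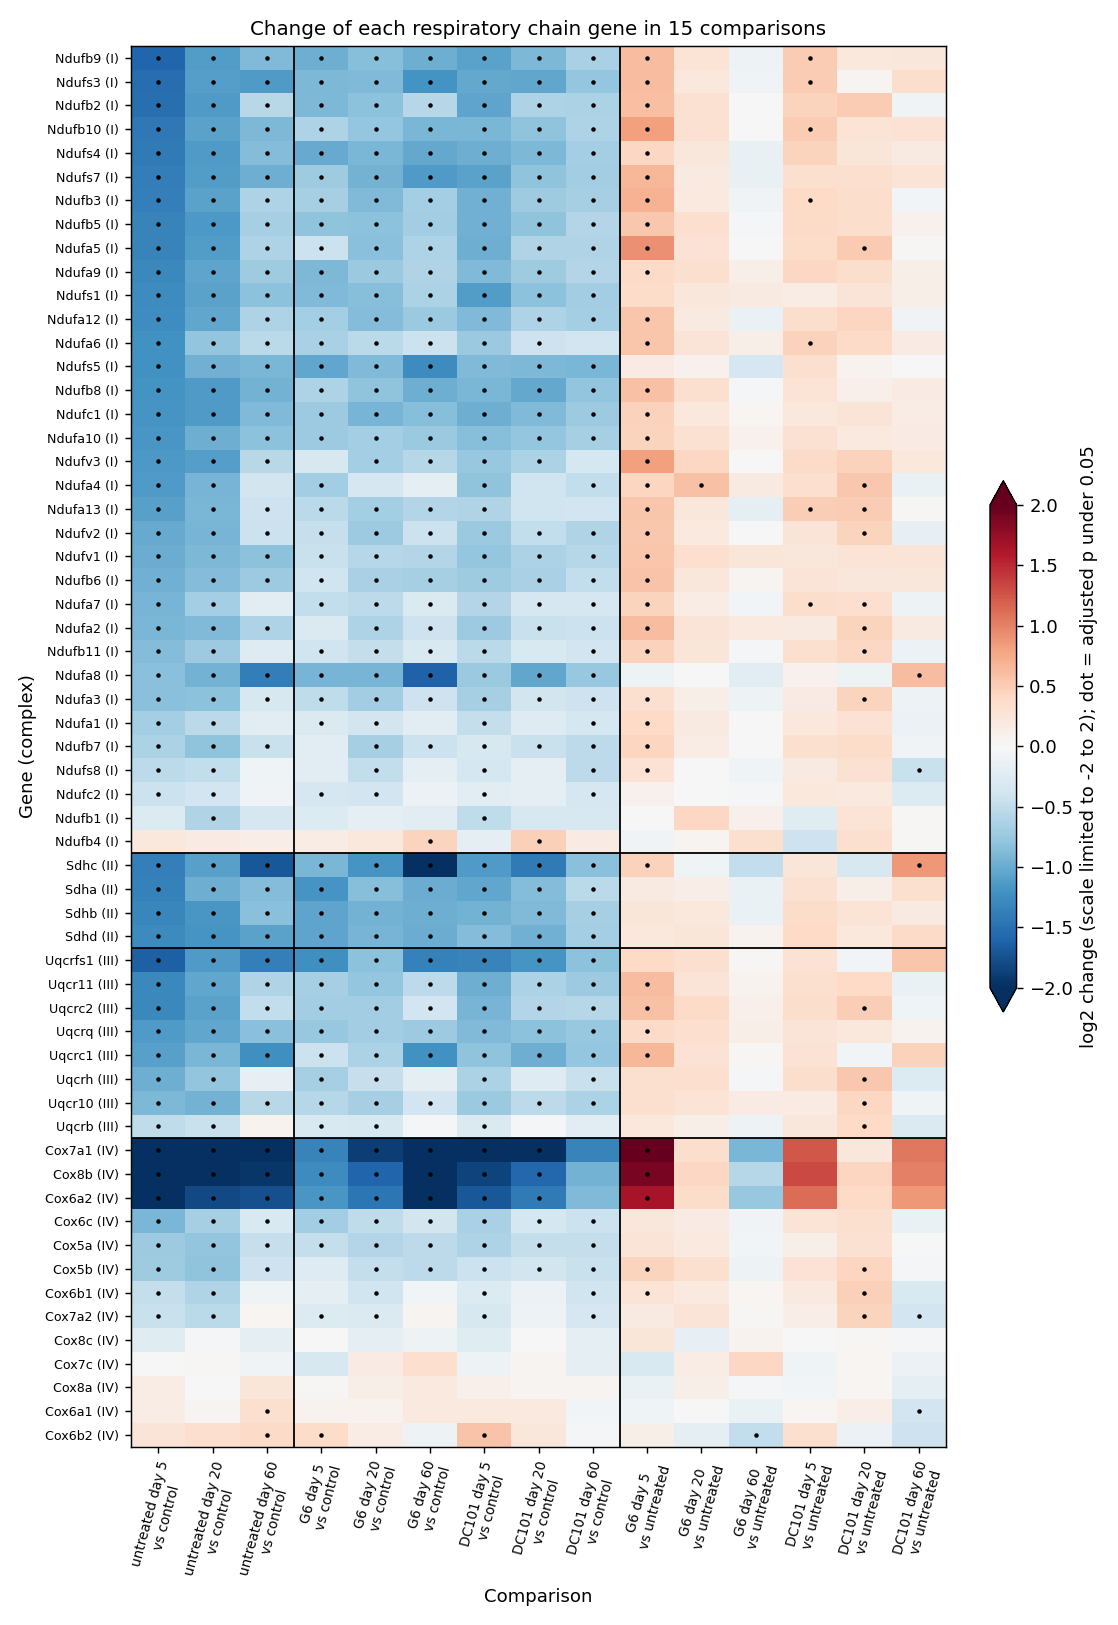
Log2 change of each of the 59 genes (rows, by complex) in 15 comparisons (columns), coloured from blue for lower to red for higher, with the colour scale limited to -2 to 2 and a dot where the adjusted p was under 0.05. The columns against control are mostly blue, G6 day 5 against untreated is the reddest of the antibody columns, and Cox7a1, Cox8b and Cox6a2 hold the deepest colours at day 5.

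At day 20 the rises with antibody were small. With G6, Ndufa4 rose (0.58, SE 0.16, adjusted p 0.013), against 3.97% of all genes called higher. That is 1 of 59 genes, below the background. The call was lost without untreated day 20 arrays 51 and 52, with only the compared groups in the model, and with neighbouring arrays averaged. At an unadjusted p under 0.05, 14 genes rose, and the 3.97%, which is at an adjusted p, is no background for that count. Ndufa4 was named for complex I and has since been assigned to complex IV. Its levels were 13.59, 14.13 and 14.63 without antibody, 14.34, 14.80 and 15.03 with G6 and 14.24, 14.65 and 15.35 with DC101. With DC101, 15 genes rose and 0 fell (0 at an unadjusted p under 0.05), against 2.44% of all genes, led by Ndufa4 (0.54, SE 0.16), Uqcrh (0.53, SE 0.13, adjusted p 0.0059) and Ndufa5 (0.52, SE 0.17, adjusted p 0.045). This count rested on few arrays: it was 1 without untreated day 20 arrays 51 and 52, 4 without DC101 day 20 array 72, and 0 with only the compared groups in the model. G6 and DC101 did not differ at day 20 in any of the 59 genes in the limma model, where 6 were lower and 1 higher with G6 at an unadjusted p under 0.05.

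At day 60 few genes of the set were called with either antibody. With G6 against untreated, 1 gene fell, Cox6b2 (-0.48, SE 0.15, adjusted p 0.023), against 9.26% of all genes called lower, a share of the set below that background. The probe set of Cox6b2 has a low mean level, 9.11. With DC101, 3 fell, Ndufs8 (-0.44, SE 0.12, adjusted p 0.0080), Cox6a1 (-0.39, SE 0.11, adjusted p 0.014) and Cox7a2 (-0.38, SE 0.10, adjusted p 0.0085), against 6.91% of all genes, and 2 rose, Sdhc (0.86, SE 0.20, adjusted p 0.0026) and Ndufa8 (0.62, SE 0.17, adjusted p 0.012), against 4.65%. These shares of the set are near the background. The median Actb ratio was 1.3 with DC101 and 1.88 without antibody, and with the RNA ratios in the model none of these 5 genes passed, nor did Cox6b2 with G6. The Actb ratios with DC101 (1.171 to 1.555) and without antibody (1.579 to 2.573) did not overlap, so that RNA quality and treatment can hardly be told apart here. Each of the 5 lay on its side of the untreated mean on 6 of 6 arrays. Ndufs8 encodes an iron-sulfur subunit of complex I. Other probe sets did not pass in this comparison for 3 of the 5 genes: the second of Cox6a1 gave 0.0019, the second of Sdhc 0.37 (adjusted p 0.11), and the 5 others of Ndufs8 from -0.36 to -0.17. The isoform differences were higher with DC101 by 1.43 for Cox7a1 less Cox7a2 (adjusted p 0.0067) and 1.26 for Cox6a2 less Cox6a1 (adjusted p 0.036), and by 1.20 for Cox8b less Cox8a, which did not pass (adjusted p 0.060, exact permutation tests). Untreated day 60 array 79 lay far below its group in Cox7a1 (8.83), Cox6a2 (10.93) and Cox8b (9.61). These permutation tests were not run without it.

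Directly compared at day 60, 9 genes were lower with G6 than with DC101, against 21.9% of all genes, and 5 were higher, against 18.6%. Both shares of the 59 genes are below the background, and the number of calls is no result about the set. Sdhc had levels of 11.08, 11.60 and 12.33 with G6 and 12.33, 13.11 and 13.22 with DC101 (change -1.35, SE 0.20, adjusted p 5.44e-07), and Ndufa8 11.75, 12.72 and 13.10 against 13.07, 13.47 and 13.75 (-0.86, SE 0.17). Cox7a1, Cox8b and Cox6a2 were lower with G6 by 1.98, 1.58 and 1.63 on the log2 scale, and Cox7a2, Cox6a1 and Ndufs8 were higher, by 0.40, 0.26 and 0.35. For Actb the ratio of 3′ to 5′ signal had a median of 2.22 in G6 day 60 and 1.3 in DC101 day 60, and with the RNA ratios in the model 0 genes were lower and 0 higher. The Actb ratios ran from 1.814 to 3.03 with G6 and from 1.171 to 1.555 with DC101, with no overlap. That model can therefore hardly tell RNA quality from treatment, and calls lost in it are no result about these genes. With the muscle marker level in the model 2 were lower and 13 higher.

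The effect of DC101 against untreated was compared between days. From day 20 to day 60 it became lower in 12 genes, against 9.29% of all genes, and higher in 2, below the 8.9% background. Cox7a2 had the smallest adjusted p of these (-0.81, SE 0.14, adjusted p 1.7e-05), followed by Cox6b1 (-0.79) and Ndufs8 (-0.74), and the 2 that became higher were Sdhc (1.18, SE 0.27) and Ndufa8 (0.72, SE 0.23). Both effects use the untreated groups of their own days, and the count of 12 was 7 without untreated day 20 arrays 51 and 52. The median Actb ratio at day 20 was 1.735 with DC101 and 1.419 without antibody. At day 60 it was 1.302 and 1.877, with no overlap of arrays. RNA quality and treatment can thus hardly be told apart in this comparison. In the limma model over all arrays, 0 genes of the set passed for the change of the DC101 effect from day 5 to day 20 or of the G6 effect between days. This depended on the model: from day 5 to day 20, 20 genes became lower in the G6 effect and 10 in the DC101 effect with array weights, and 5 in the G6 effect with only the compared groups. At an unadjusted p under 0.05 the numbers lower and higher were 2 and 3 for DC101, 9 and 0 for G6 from day 5 to day 20, and 1 and 0 for G6 from day 20 to day 60.

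With either antibody most genes of the set were lower than in the controls, which all these comparisons share. In G6 day 20, 51 of the 59 genes were lower than in control, against 16.3% of all genes, and in G6 day 60, 44, against 24.9%, with 1 higher (Ndufb4, against 23.8%). The G6 day 60 count was 3 with the RNA ratios in the model and 15 with the muscle marker level, and the median Actb ratio was 2.22 in that group and 1.31 in the controls. DC101 gave 53 lower at day 5, against 22.6%, with 1 higher (Cox6b2, against 23.3%), 42 at day 20, against 15.1%, with 1 higher (Ndufb4, against 15.2%), and 45 at day 60, against 10.7%. Without the high control array these counts of lower genes were 38, 48 and 38 with G6 and 49, 37 and 34 with DC101 at day 5, day 20 and day 60. In DC101 day 60 the muscle forms did not pass against control: Cox8b was at -0.94 (95% interval -2.01 to 0.13), Cox6a2 at -0.88 (-1.85 to 0.09) and Cox7a1 at -1.34 (-2.39 to -0.29, adjusted p 0.055). In G6 day 60 their changes were -2.52, -2.52 and -3.32, without the covariates.

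The other mitochondrial genes, taken from lists drawn up with earlier results known, mostly fell as well at day 5 without antibody, where 24.9% of all genes were called lower and 27.9% higher. Of the ATP synthase genes, 14 of 15 fell (median -0.86), and Atpif1, which encodes an inhibitor of the enzyme, rose by 0.60. Atp5g1, a gene for the proton-carrying ring, fell by 1.64 (SE 0.22). Of the tricarboxylic acid cycle and pyruvate dehydrogenase genes 15 of 16 fell and 0 rose (median -1.05, with Suclg1 at -1.63 and Idh3a at -1.43), and of the fatty acid oxidation genes 13 of 14 (median -0.85, with Acadm at -1.40), while Cpt1a rose by 0.90. Assembly factors fell in 31 of 38 (Sdhaf3 at -1.54), genes of mitochondrial structure and import in 17 of 22 (Mfn2 at -1.82), and mitochondrial ribosomal proteins in 58 of 73 (median -0.54), with none rising in the limma model.

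Respiratory genes outside the naming rule were mixed: 4 of 7 fell, among them Ndufab1 at -1.53, and Ndufa4l2, a relative of Ndufa4 known for its induction under low oxygen, rose by 2.61 (SE 0.41). Of 14 regulators 9 fell, led by Ppargc1a (-2.44, SE 0.29), a coactivator of mitochondrial biogenesis, and Perm1 (-2.14, SE 0.28), a muscle regulator of oxidative genes, and Nrf1, a nuclear regulator of respiratory genes, rose by 0.29, as did the oxygen-responsive factor Hif1a, by 1.0. In glycolysis 8 of 13 fell, among them the muscle phosphofructokinase Pfkm (-2.67) and Ldhb (-2.48), and Hk1, Pfkp and Pgam1 rose. With G6 at day 5, 9 of 15 ATP synthase genes, 10 of 16 tricarboxylic acid cycle genes, 6 of 14 fatty acid oxidation genes and 10 of 73 mitochondrial ribosomal genes rose, against 16.7% of all genes. The share of the ribosomal genes is below that background, and 6 of them fell, against 15% of all genes called lower, with a median of 0.05.

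Markers of tissue components moved in the same comparisons, and their counts stand against the same shares of all genes. Of 20 skeletal muscle fibre markers, 18 fell at day 5 without antibody, among them Pygm (-2.91) and Ryr1 (-2.89), and 1 rose, the slow troponin Tnni1 (1.70). The slow-fibre genes Myh7 and Tnni1 were as low as 7.05 and 6.54 on a control array, and the other 18 were at 10.74 or above on all control and untreated day 5 arrays. Ckm, the muscle creatine kinase, ran from 16.06 to 16.95 in the controls and 14.22 to 15.23 in untreated day 5. The mean level of the list ran from 14.74 to 16.07 in the controls, 13.08 to 13.98 in untreated day 5, 14.05 to 15.39 in G6 day 5, 13.60 to 14.86 in DC101 day 5, 13.06 to 15.03 in untreated day 20, 10.99 to 14.86 in untreated day 60, 10.30 to 14.79 in G6 day 60 and 14.05 to 14.97 in DC101 day 60. With G6 at day 5, 13 of the 20 rose, and at day 60 the list's mean had a median of 13.32 with G6, where arrays 86 and 87 were lowest (10.30 and 10.54), and of 14.61 with DC101.

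With the muscle marker level in the model, 51 of the 59 genes fell at day 5, all of them among the 52. At day 20, 53 fell and at day 60, 26. The median changes were -0.77, -0.71 and -0.33 at day 5, day 20 and day 60. The marker means of untreated day 5 (13.08 to 13.98) did not overlap those of the controls (14.74 to 16.07) or of G6 day 5 (14.05 to 15.39). At day 5 this model can therefore hardly tell muscle signal from the group in these comparisons. In that model 20 genes rose with G6 at day 5 in place of 38, and none with DC101 at day 5 (7 before). The share of all genes called in this model is not given. Under this model Cox7a1, Cox8b and Cox6a2 changed by -1.58, -1.24 and -1.03 at day 5 against control, and Ndufb9 and Uqcrfs1 by -1.17 and -1.18. Muscle signal and the level of the set ran together on some arrays and not on others, and their relation over all arrays was not tested. The high control array had the highest muscle marker mean of all 78 arrays (16.07) and the highest median level of the 59 genes (15.36). DC101 day 20 array 72 came next in both (15.96 and 14.83). Untreated day 20 arrays 51 and 52 had the lowest muscle marker means of their group (13.06 and 13.22) and the lowest median levels of the 59 genes of all 78 arrays (13.26 and 13.21). Untreated day 60 array 79, with a muscle mean of 10.99, had a median level of 13.65, near the low end of its group's range of 13.61 to 14.18. On G6 day 60 arrays 86 and 87 the median levels were 14.09 and 13.92, in a group with a range of 13.69 to 14.44.

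**Figure D5:**
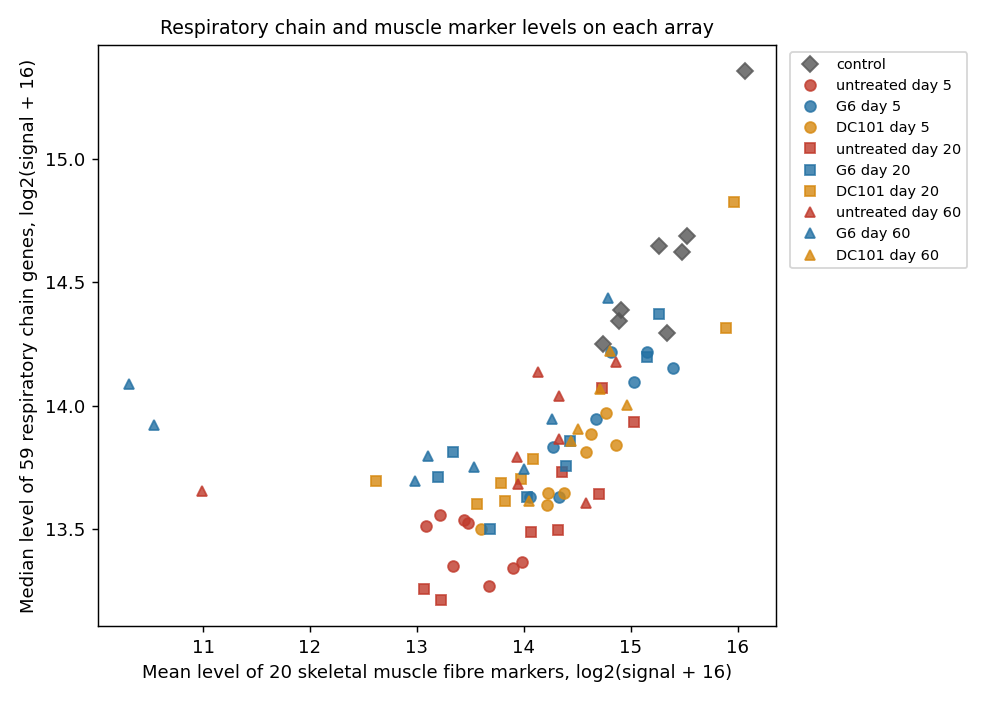
Median level of the 59 genes against the mean level of 20 skeletal muscle fibre markers on each of the 78 arrays, both as log2(signal + 16), coloured by treatment and shaped by day. The control arrays sit at the upper right, and the arrays with the lowest muscle marker means, near 10 to 11, are from day 60.

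Other components changed as well. Of 8 adipocyte markers 6 fell at day 5 without antibody (Slc2a4 at -3.21, Retn at -3.01), and of 7 mammary epithelium markers 5 fell, while 7 of 8 endothelium markers rose (Tie1 by 3.60), as did 7 of 8 macrophage markers (Mpeg1 by 3.38). Of the cell cycle genes 7 of 7 rose, of the epidermis markers 4 of 8, and of the fibroblast markers 4 of 7 fell and 2 rose. Of the brown fat list, Ucp1, its defining gene, did not pass the filter on signal, Ppargc1a fell and Elovl3 rose by 1.14. With G6 at day 5, 7 of 8 endothelium markers fell, with Tie1 at -2.98, and macrophage markers did not pass (median -0.09). All 7 cell cycle genes fell in that comparison (Bub1 at -1.41, Cdk1 at -1.30), while 3 of 8 epidermis markers rose (Lor at 2.64, Krt10 at 1.87, Krt1 at 1.75), as did 3 of 7 fibroblast markers (Lum at 1.52, Dcn at 0.75, Pdgfra at 0.73) and 3 of 4 genes of the brown fat list (Cidea at 1.48, Ppargc1a at 1.24, Elovl3 at 0.92). Of the adipocyte list 1 gene rose, Slc2a4 (1.36), and 1 fell, Fabp4 (-0.96), and of the mammary markers 0 passed. Slc2a4 thus moved in the direction of most muscle markers here, and it is part of the adipocyte level used in the models. With adipocyte and muscle levels both in the model, 26 genes of the set fell at day 60 against control and 20 rose with G6 at day 5. The adipocyte marker means of untreated day 5 (10.76 to 11.19) did not overlap those of the controls (11.61 to 13.75) either. At day 5 against control these fits can therefore hardly tell the marker levels from the group. Apart from these fits, the part of the other cell types in the result was not tested.

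Several members are read by more than one probe set. For 36 of the 59 genes there were 61 further probe sets past the filter, of which 47 fell and 1 rose at day 5 without antibody, with a median change of -0.89. Of the 46 with a mean level of at least 11, 43 fell. With G6 at day 5, 35 of the 61 rose and 3 fell. These probe sets were tested in a fit over all probe sets past the filter. The share called in that fit is not given, so that these counts stand without a background. The second probe set of Cox6a2 gave -3.71 at day 5 against control and 2.41 with G6, and the second of Sdhc gave -0.97, -0.59 and -0.92 at day 5, day 20 and day 60, against -1.37, -1.09 and -1.70 for the brighter one used here. The 2 other probe sets of Cox8a gave -0.01 and 0.04 at day 5.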

How the data were processed

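Total RNA of 78 samples was hybridised to Affymetrix whole-genome mouse arrays, 1 array a sample. The deposited values are MAS5 signal intensity on a linear scale, made by the authors with GCOS 1.3 per the submitters' processing notes. Probe sets with 1 gene symbol in the platform annotation were kept where log2(signal + 16) exceeded 8.44 on at least 6 arrays, and the brightest probe set stood for a gene, leaving 14719 genes. Log2(signal + 16) values were fitted with limma 3.58.1 (R 4.3.3) over 10 groups with a trended prior. Tests were two-sided, with Benjamini-Hochberg adjustment and a threshold of 0.05. The fit and tables were tested on simulated data.

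The text names the 6 isoform genes, for each main comparison up to 3 called genes with the largest change per direction and those called against the majority, the largest and smallest day 5 change of each complex, and the 2 most changed called genes of each other list. Further genes were named after their values were seen. The members and lists were chosen with earlier results of these data known. Alternatives were other pseudocounts, no filter, quantile normalization, other probe sets, array weights, only the compared groups, covariates for RNA ratios and muscle and adipocyte markers, a 2-fold minimum, averaged neighbouring arrays, and pairs of arrays left out. Leaving out the high control array, DC101 day 20 array 72 and G6 day 60 array 88 was chosen after seeing the data. Promoter windows came from RefSeq (GRCm38.p6). The number of arrays limits the precision.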

Additional observations from a re-analysis of the deposited data

Results flagged for a closer look

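Of 180 sets of values (a quantity in a group), 24 held an array far from the others of its group by Dixon's criterion, which chance alone gives in about 1 in 20 groups. The last-numbered control array was high in 10 of them: in the median level of the 59 genes (15.36), complex I (15.18), complex II (14.61), complex III (15.49), Ndufb9 (16.43), Sdhd (14.48), Sdhc (14.66), Uqcrb (17.19), Uqcrfs1 (15.36) and Cox7a2 (16.42), all as log2(signal + 16). DC101 day 60 array 93 was low in complex II (12.64), Sdhd (12.20), Sdhc (12.33) and Uqcrfs1 (12.89). Untreated day 60 array 79 was low in the muscle forms Cox7a1 (8.83), Cox6a2 (10.93) and Cox8b (9.61), and its muscle marker mean was 10.99.

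The other arrays that stood apart were DC101 day 5 array 24 in complex III (13.36) and Cox7a2 (15.25), G6 day 60 array 88 in complex IV (15.39), untreated day 5 array 4 (7.35) and DC101 day 20 array 68 (8.74) in Ndufb4, G6 day 5 array 12 in Cox6a1 (16.05) and DC101 day 20 array 72 in Cox8a (12.76).

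At day 20 the median Actb ratio was higher with DC101 than without antibody, and at day 60 it was lower. The difference between DC101 and untreated changed from day 20 to day 60 in 14 genes by the test of that change in limma. It became lower in Cox7a2 (-0.81), Uqcrh (-0.81), Cox6b1 (-0.79), Ndufs8 (-0.74), Uqcrb (-0.69), Ndufa4 (-0.66), Ndufv2 (-0.61), Ndufa3 (-0.55), Ndufb11 (-0.54), Cox6a1 (-0.52), Ndufc2 (-0.47) and Ndufa7 (-0.44), and higher in Sdhc (1.18) and Ndufa8 (0.72), on the log2 scale.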

How the results depend on the processing

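The falls against control at day 5 and day 20 without antibody kept 1.5 times or closer to their counts under every alternative except a 2-fold minimum. The DC101 day 5 count moved furthest, from 7 to between 0 and 42, and the small counts at day 20 and day 60 moved as well. The cause of the movements was not tested. The share of all genes called can move with a setting too and is not given here, so that a moved count is no result about the set by itself. Arrays not tied to animals limit all p-values. No paired analysis was possible because array numbers run on across the groups and no number is shared.

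With a 2-fold minimum the counts lower against control were 33, 25 and 9 without antibody, 9, 4 and 11 with G6, and 11, 8 and 0 with DC101, at day 5, day 20 and day 60. The counts higher with G6 at day 5 were then 3, those lower with G6 than DC101 at day 60 were 4, and the remaining counts were 0.

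With RNA ratios as covariates the counts lower against control were 20 for untreated day 60, 18 for G6 day 5 and 3 for G6 day 60. Lower with G6 at day 60 were 0, higher with DC101 at day 5 were 0, lower with DC101 at day 60 was 1, higher at untreated day 20 than day 5 were 0, higher with G6 than DC101 at day 5 were 9, lower at day 60 were 0, and lower in the G6 effect from day 5 to day 20 was 1.

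With the muscle marker level as a covariate the counts were 26 for untreated day 60 against control, 15 for G6 day 60 against control, 20, 0, 4 and 25 higher for G6 day 5, DC101 day 5, G6 day 20 and DC101 day 20 against untreated, 6 lower for DC101 day 60, 0 for untreated day 20 against day 5, 4 and 2 for G6 against DC101 at day 5 and day 60, and 25 lower for the DC101 effect from day 20 to day 60. With adipocyte markers added they were 26, 14, 20, 0, 3, 24, 6 and 0, then 2 for day 60 and 25 for the DC101 effect. With adipocyte markers alone DC101 day 5 gave 4.

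With array weights the counts were 42, 5 and 9 higher for DC101 day 5, G6 day 20 and DC101 day 20, 6 lower for DC101 day 60, 21 for untreated day 20 against day 5, 10, 1 and 14 for G6 against DC101 by day, and 20 and 10 lower for the G6 and DC101 effects from day 5 to day 20. With only the compared groups they were 40 for DC101 day 5, 0 for G6 day 20, G6 day 60 and DC101 day 20, 12 for untreated day 20 against day 5, 5 for G6 against DC101 at day 5 and 5 for the G6 effect. Quantile normalization gave 2 for G6 day 20, 11 for DC101 day 5, 9 for untreated day 20 against day 5, 4 for G6 against DC101 at day 5 and 1 for the G6 effect, and the Cox6a2 less Cox6a1 change with DC101 at day 60 was 1.09 and no longer passed. The mean of probe sets gave 2 for G6 day 20 and 1 for G6 against DC101 at day 5.

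Averaging neighbouring arrays gave 0 for G6 day 20, G6 day 60, DC101 day 5, untreated day 20 against day 5 and G6 against DC101 at day 5, 2 for DC101 day 20, 1 for DC101 day 60, 15 for untreated day 60 against day 20 and 6 for the DC101 effect. Without untreated day 20 arrays 51 and 52 the counts were 0 for G6 day 20, 1 for DC101 day 20, 14 for day 20 against day 5, 10 for day 60 against day 20, 3 for the G6 effect and 7 for the DC101 effect. Without G6 day 5 arrays 13 and 14 they were 7 for G6 against DC101 at day 5 and 2 for the G6 effect. G6 day 60 gave 2 without untreated day 60 arrays 77 and 79, and 2 without G6 day 60 array 88. DC101 day 20 gave 4 without array 72. For single genes, Cox6a1 with DC101 at day 60 turned from -0.39 to 0.0019 on its second probe set, 107 other values lost their call and 888 kept it or stayed without one.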
